A study of Mus musculus with 4 samples.

Results

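The Krüppel-like factors examined were the 10 genes *Klf2*, *Klf3*, *Klf4*, *Klf6*, *Klf7*, *Klf9*, *Klf10*, *Klf13*, *Klf15* and *Klf16*, chosen by name from the 24322 gene symbols in the files and found there without exception. Their RNA was measured by RNA-seq in mTFP-positive cells, which the study collected by FACS from mouse retina as Müller glial cells, the main glia of the retina. The 2 control mice, numbered 7984 and 3911, were *Rax* flox/WT, and the 2 *Rax* iCKO mice, numbered 7983 and 3914, were *Rax* flox/flox. All 4 mice carried *Rlbp1-CreERT2*, a tamoxifen-dependent Cre under a promoter of the Müller glial gene *Rlbp1*, and the reporter *R26-CAG-LoxP-mTFP1*, with tamoxifen given at P4 and cells taken at P14. The labels list 129S6 as the background. The controls thus also lose their floxed *Rax* allele where Cre acts and keep the intact one, and the study also saw Cre activity of this transgene in the retinal pigment epithelium. The comparison asks whether the RNA of these factors differs when *Rax*, a homeobox gene of retinal progenitors and Müller glial cells, is depleted.

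Krüppel-like factors are transcription factors that bind GC-rich DNA and CACCC boxes through tandem zinc fingers at the end of the protein. The fingers are alike across the family, whereas the rest of the protein differs and recruits activators or repressors. *Klf2*, *Klf4*, *Klf6* and *Klf7* encode factors that can act as activators, *Klf3* encodes a repressor that binds CtBP proteins, and *Klf9*, *Klf10*, *Klf13* and *Klf16* encode factors that bind the Sin3 corepressor. In retinal neurons *Klf4* and *Klf9* are known to restrain axon growth and *Klf6* and *Klf7* to favour it.

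The DNA-binding part is shown first, because it is what makes these genes a family and because near-identical stretches could let reads of one gene count for another. The 87 coding bases of the last zinc finger, with the linker before it, are given for 3 pairs of close relatives from GENCODE M21 transcripts of GRCm38. Capitals mark the 24 bases that are the same in all 10 genes.
Klf2: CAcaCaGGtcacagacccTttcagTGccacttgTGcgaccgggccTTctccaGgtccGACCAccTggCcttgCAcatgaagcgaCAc
Klf4: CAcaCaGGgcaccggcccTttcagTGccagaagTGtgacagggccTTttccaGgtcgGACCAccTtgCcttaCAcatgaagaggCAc
Klf6: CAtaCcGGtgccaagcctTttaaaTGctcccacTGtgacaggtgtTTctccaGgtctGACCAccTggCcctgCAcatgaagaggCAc
Klf7: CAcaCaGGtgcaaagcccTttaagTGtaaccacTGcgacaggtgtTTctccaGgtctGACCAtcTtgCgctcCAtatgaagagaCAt
Klf9: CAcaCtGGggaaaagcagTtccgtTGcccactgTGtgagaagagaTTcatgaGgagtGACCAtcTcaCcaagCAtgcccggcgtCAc
Klf13: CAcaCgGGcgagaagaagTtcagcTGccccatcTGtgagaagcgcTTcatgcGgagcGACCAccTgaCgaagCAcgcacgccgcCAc
*Klf2* and *Klf4* shared 73 of these 87 bases (83.9%), *Klf6* and *Klf7* shared 71 (81.6%), and *Klf9* and *Klf13* shared 67 (77.0%). Over the 45 pairs of the 10 genes the identity ran from 50.6% to 83.9%, with a median of 58.6%. The longest run of identical bases between the coding transcripts of any pair was 26 bases, between *Klf6* and *Klf7*, which is shorter than a read of this study.

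The promoters of *Klf7*, *Klf4* and *Klf3* are given because these genes showed, among the members tested, the largest difference up, the largest difference down and the largest difference between pairs of mice in the values below. Each is the 250 bases before the annotated start, from RefSeq on GRCm38.p6, at chr1:64121390-64121639 on the minus strand, chr4:55532476-55532725 on the minus strand and chr5:64803271-64803520 on the plus strand. The genes themselves lie at chr1:64029448-64122345, chr4:55527137-55532475 and chr5:64803521-64832901, so that the *Klf7* window precedes a transcript start inside the annotated span of the gene. Capitals mark GC boxes (GGGCGG) and CACCC boxes on either strand, and the boxes may overlap.
Klf7: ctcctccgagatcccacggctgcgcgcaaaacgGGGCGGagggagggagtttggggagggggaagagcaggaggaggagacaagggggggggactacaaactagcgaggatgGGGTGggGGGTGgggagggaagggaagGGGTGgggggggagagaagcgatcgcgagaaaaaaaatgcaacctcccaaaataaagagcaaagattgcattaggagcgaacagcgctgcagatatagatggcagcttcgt
Klf4: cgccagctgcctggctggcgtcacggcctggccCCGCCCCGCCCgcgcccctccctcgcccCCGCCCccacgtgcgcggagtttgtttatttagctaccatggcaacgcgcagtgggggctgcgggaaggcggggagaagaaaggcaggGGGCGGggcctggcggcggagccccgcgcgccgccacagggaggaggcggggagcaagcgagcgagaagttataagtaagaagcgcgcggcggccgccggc
Klf3: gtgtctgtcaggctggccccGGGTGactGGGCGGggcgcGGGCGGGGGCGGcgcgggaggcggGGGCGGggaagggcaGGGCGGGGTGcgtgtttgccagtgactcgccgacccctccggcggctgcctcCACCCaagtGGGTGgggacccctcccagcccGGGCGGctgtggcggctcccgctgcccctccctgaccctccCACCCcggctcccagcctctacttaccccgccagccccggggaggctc
The *Klf3* promoter held 6 GC boxes and 5 CACCC boxes, the *Klf4* promoter 4 GC boxes and no CACCC box, and the *Klf7* promoter 1 GC box and 3 CACCC boxes. Of the 8 members matched to a promoter of this kind, 7 held a GC box and 6 a CACCC box, against 32.7% and 52.0% of all 32851 promoters. The letters TAATT, which the study took as a predicted *Rax* site in another promoter, were in 0 of these 8 windows and in 25.0% of all promoters, searched on both strands. The GC content of the 8 windows ran from 59.2% to 78.4%, against a median of 52.4% over all promoters. These matches describe letters and were not tested as binding sites.

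The unit of the files is FPKM, the fragments on a gene per kilobase of its exons and scaled to the mapped fragments of the library, so that levels may be compared between genes. *Rax*, the targeted gene, measured 189.1 FPKM (mouse 7984) and 181.4 FPKM (mouse 3911) in control against 111 FPKM (mouse 7983) and 98.4 FPKM (mouse 3914) in *Rax* iCKO, with both *Rax* iCKO libraries below both controls. From the whole-read steps of low values, the libraries held an estimated 9210000 to 12590000 mapped reads. *Xist* was above 20 FPKM in both controls and under 1 FPKM in both *Rax* iCKO mice, so that sex and genotype cannot be told apart here. The labels pair no mice, but the numbers form 2 runs, 7983 with 7984 and 3911 with 3914, and the libraries were most alike within a run. Taken over genes, which are no independent replicates, the correlation of log2(FPKM + 1) was 0.970 within each run and 0.947 to 0.955 between runs. Müller glial markers were strong in all 4 libraries, with *Apoe* between 3901 and 5041 FPKM and *Rlbp1* between 1292 and 2616 FPKM. Bipolar cell markers were strong as well, with *Pcp2* between 2071 and 6515 FPKM and *Cabp5* between 390 and 812 FPKM. The levels below are those of the sorted libraries and cannot be assigned to Müller glial cells alone.

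The 10 factors differed widely in RNA level. *Klf3*, *Klf10* and *Klf9* were the most abundant, with mean FPKM over the 4 mice of 23.5, 23.2 and 21.7, and together made up 63.6% to 69.5% of the summed FPKM of the 10 genes in a mouse. *Klf15*, a metabolic regulator induced by glucocorticoids, followed at 11.9 and *Klf6* at 8.75. *Klf13*, *Klf7*, *Klf4* and *Klf16* lay at 4.86, 3.55, 3.10 and 2.69. *Klf2*, best known from endothelium and lymphocytes, was at 0.301. The order of *Klf3*, *Klf10* and *Klf9* was not the same in every mouse, and their ranges overlapped. The ranges of *Klf9*, *Klf15*, *Klf6* and *Klf13* did not overlap from one to the next, each being above the next in all 4 mice. Neighbours among *Klf13*, *Klf7*, *Klf4* and *Klf16* overlapped, with the first of each pair higher in 3 of 4 mice. Read against all 12363 genes averaging at least 1 FPKM, *Klf3* stood above 66.0% of them and *Klf16* above 13.7%. Summed, the 10 genes measured 106.6 FPKM (mouse 7984) and 94.7 FPKM (mouse 3911) in control against 106 FPKM (mouse 7983) and 107 FPKM (mouse 3914) in *Rax* iCKO.

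**Figure D1:**
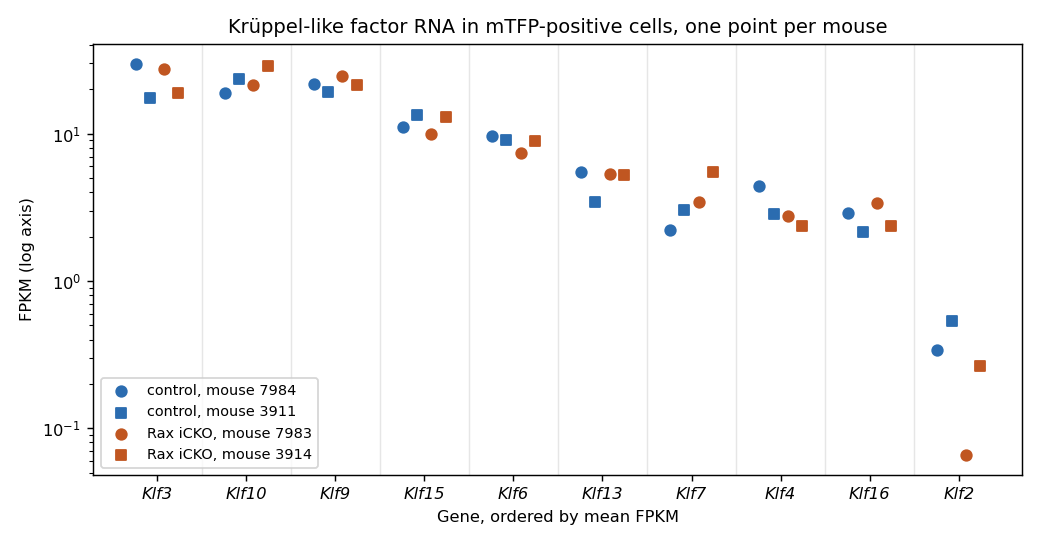
FPKM of the 10 Krüppel-like factors in each mouse on a log axis, with genes ordered by mean FPKM; circles are mice 7984 and 7983, squares mice 3911 and 3914, blue control and orange *Rax* iCKO. *Klf3*, *Klf10* and *Klf9* lie near 20 FPKM, *Klf2* lies under 1 FPKM, and for *Klf3* the circles stand above the squares in both genotypes.

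None of the 9 factors that could be tested was called between the genotypes, and neither was the targeted gene *Rax*. Genes were compared with limma, a linear model with a shared estimate of variance, on log2(FPKM + 1), keeping genes whose FPKM averaged 1 or more. *Klf2* did not reach that level, so 9 of the 10 members were tested. Of these, 0 had an adjusted p under 0.05 and 0 had an unadjusted p under 0.05, where 0.0243% (0.00809% higher and 0.0162% lower) and 2.86% of all genes tested did. The median log2 fold change of the 9 was 0.13, against -0.00444 over all genes tested, with 5 estimates above 0 and 4 below. Both *Rax* iCKO libraries lay beyond both controls for 3 of the 9, a share to be read against 29.5% of all genes tested. *Klf7* was higher in this sense, and *Klf4* and *Klf6* were lower. *Rax* itself had a log2 fold change of -0.82 (standard error 0.21) and a limma p of 0.00859 before and 0.9999 after adjustment. A gene that was not called may therefore still differ. With 2 mice against 2, an exact permutation test on 1 gene cannot give a two-sided p under 0.333. Each difference below is on the log2(FPKM + 1) scale, which shrinks the change of weakly expressed genes.

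*Klf7* showed the largest difference among the members. It measured 2.21 FPKM (mouse 7984) and 3.04 FPKM (mouse 3911) in control against 3.45 FPKM (mouse 7983) and 5.48 FPKM (mouse 3914) in *Rax* iCKO. The *Rax* iCKO mice were above the controls, with the 3914 library well above the other 3. The control average was 2.63 ± 0.582 (SD, n = 2) and that of *Rax* iCKO 4.47 ± 1.44 (SD, n = 2), a ratio of 1.70. The log2 fold change came to 0.58 (standard error 0.31), with a 95% interval from 0.876-fold to 2.54-fold and a limma p of 0.116 before and 1.0 after adjustment over all genes. Of the genes tested, 94.3% had a smaller absolute log2 fold change. After quantile normalization the groups overlapped for *Klf7*. By the distance between the 4 mean-centred log2 values, the genes whose pattern was closest to that of *Klf7* among 12362 others were *Ttll7*, *Ccdc25* and *Elmo1*, at distances of 0.027, 0.084 and 0.085. *Ttll7*, for example, measured 3.88 FPKM (mouse 7984) and 5.01 FPKM (mouse 3911) in control against 5.75 FPKM (mouse 7983) and 8.88 FPKM (mouse 3914) in *Rax* iCKO. With only 4 values per gene, close matches among so many genes are easily found, and shared regulation was not tested.

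*Klf6*, the closest relative of *Klf7* in the finger sequence above, measured 9.63 FPKM (mouse 7984) and 9.03 FPKM (mouse 3911) in control against 7.38 FPKM (mouse 7983) and 8.95 FPKM (mouse 3914) in *Rax* iCKO. The lower value of the controls and the higher value of the *Rax* iCKO mice were almost equal. The control average was 9.33 ± 0.424 (SD, n = 2) and that of *Rax* iCKO 8.16 ± 1.11 (SD, n = 2), and the log2 fold change was -0.18 (standard error 0.24). Its 95% interval ran from 0.592-fold to 1.32-fold.

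*Klf4* had the largest difference downward of the genes tested in the family. It measured 4.42 FPKM (mouse 7984) and 2.84 FPKM (mouse 3911) in control against 2.76 FPKM (mouse 7983) and 2.38 FPKM (mouse 3914) in *Rax* iCKO. Both *Rax* iCKO mice were below both controls, but control mouse 3911 was close to *Rax* iCKO mouse 7983. The control average was 3.63 ± 1.11 (SD, n = 2) and that of *Rax* iCKO 2.57 ± 0.268 (SD, n = 2), a ratio of 0.707. The log2 fold change came to -0.36 (standard error 0.30), with a 95% interval from 0.470-fold to 1.30-fold and a limma p of 0.278 before and 1.0 after adjustment. These values rest on an estimated 157 and 74 reads in control and 73 and 62 in *Rax* iCKO. Without control mouse 7984 the log2 fold change was -0.11.

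*Klf2*, the closest relative of *Klf4* in the finger sequence, measured 0.340 FPKM (mouse 7984) and 0.533 FPKM (mouse 3911) in control against 0.0656 FPKM (mouse 7983) and 0.266 FPKM (mouse 3914) in *Rax* iCKO. Both *Rax* iCKO libraries were below both controls. In whole reads these values are an estimated 7 and 8 reads in control and 1 and 4 reads in *Rax* iCKO. Summed over the mice and scaled to depth, 5 reads against 15 gave a ratio of 0.391 with a 95% exact interval from 0.111 to 1.13, which covers counting error only and not the spread between mice. In a limma fit without the filter its log2 fold change was -0.30 (standard error 0.14, adjusted p = 0.995). No difference in *Klf2* was detected.

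*Klf3*, the CtBP-binding repressor, measured 29.9 FPKM (mouse 7984) and 17.6 FPKM (mouse 3911) in control against 27.7 FPKM (mouse 7983) and 18.9 FPKM (mouse 3914) in *Rax* iCKO. Each genotype held 1 high and 1 low mouse, and the control average was 23.8 ± 8.74 (SD, n = 2) and that of *Rax* iCKO 23.3 ± 6.20 (SD, n = 2). The log2 fold change came to -0.0031 (standard error 0.33), with a 95% interval from 0.574-fold to 1.73-fold.

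Among the Sin3-binding factors, *Klf9*, which thyroid hormone and glucocorticoids induce, measured 21.8 FPKM (mouse 7984) and 19.1 FPKM (mouse 3911) in control against 24.5 FPKM (mouse 7983) and 21.5 FPKM (mouse 3914) in *Rax* iCKO. The groups overlapped narrowly, and they no longer did once the libraries were set to equal medians. Its log2 fold change of 0.17 (standard error 0.21) had a 95% interval from 0.783-fold to 1.61-fold. *Klf10*, which TGF-beta induces, measured 18.9 FPKM (mouse 7984) and 23.6 FPKM (mouse 3911) in control against 21.4 FPKM (mouse 7983) and 29.0 FPKM (mouse 3914) in *Rax* iCKO, with overlapping groups and a log2 fold change of 0.23 (standard error 0.25). *Klf13* measured 5.51 FPKM (mouse 7984) and 3.42 FPKM (mouse 3911) in control against 5.31 FPKM (mouse 7983) and 5.21 FPKM (mouse 3914) in *Rax* iCKO. Control mouse 3911 alone was low for *Klf13*, and the log2 fold change was 0.22 (standard error 0.29). *Klf16* measured 2.88 FPKM (mouse 7984) and 2.15 FPKM (mouse 3911) in control against 3.37 FPKM (mouse 7983) and 2.36 FPKM (mouse 3914) in *Rax* iCKO, with overlapping groups and a log2 fold change of 0.13 (standard error 0.30). *Klf15*, which is not one of these Sin3-binding factors, measured 11.0 FPKM (mouse 7984) and 13.5 FPKM (mouse 3911) in control against 10.02 FPKM (mouse 7983) and 13.1 FPKM (mouse 3914) in *Rax* iCKO. Its groups overlapped, with a log2 fold change of -0.08 (standard error 0.25). Over all 9 genes tested, the 95% intervals reached no lower than 0.470-fold and no higher than 2.54-fold.

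**Figure D2:**
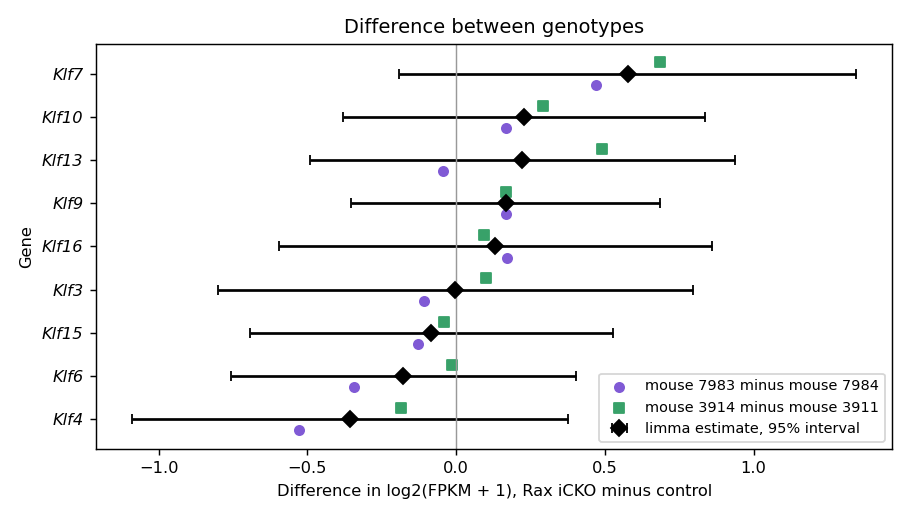
Difference in log2(FPKM + 1), *Rax* iCKO minus control, for the 9 members tested, as the limma estimate with its 95% interval (diamonds), and for each run of mouse numbers (circles, mouse 7983 minus 7984, and squares, mouse 3914 minus 3911). Every interval includes 0, and *Klf7* and *Klf4* lie at the ends, at 0.58 and -0.36.

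The direction was the same in both runs of mouse numbers for 7 of the 9 factors tested, where it was the same for 62.5% of all genes tested. For *Klf7*, mouse 7983 exceeded mouse 7984 by 0.47 and mouse 3914 exceeded mouse 3911 by 0.68 in log2(FPKM + 1). The same differences were -0.53 and -0.19 for *Klf4* and -0.34 and -0.012 for *Klf6*. *Klf9* gave 0.17 in both runs and *Klf10* 0.17 and 0.29. *Klf3* and *Klf13* pointed in opposite directions in the runs, at -0.11 and 0.10 and at -0.04 and 0.49.

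Several factors separated by the run of mouse numbers rather than by genotype. This comparison was chosen after the values were seen. Both mice 3911 and 3914 lay beyond both mice 7983 and 7984 for 6 of the 9 factors tested, lower for *Klf3*, *Klf9*, *Klf13* and *Klf16* and higher for *Klf10* and *Klf15*. Of all genes tested, 55.9% separated in the same way, 26.8% lower and 29.1% higher, so the share of the family was near the background. In limma with genotype and run as terms, *Klf3* was lower in mice 3911 and 3914 by a log2 difference of -0.63 (standard error 0.16, adjusted p = 0.0167), where 18.8% of all genes tested were called, 8.88% lower and 9.9% higher. Its mean FPKM was 28.8 in mice 7983 and 7984 and 18.3 in mice 3911 and 3914. *Klf10* had a difference of 0.37 (standard error 0.15) and an adjusted p of 0.114 in the same limma fit, with means of 20.1 and 26.3 FPKM. The other 7 factors tested had limma adjusted p values between 0.207 and 0.80. In the same fit 0 members were called between genotypes, where 0.574% of all genes were, and 1, *Klf7*, had an unadjusted p under 0.05, where 15.7% did. The absolute difference by run was larger than that by genotype for 6 of the 9 factors. The median absolute log2 difference of the 9 was 0.32 by run and 0.18 by genotype, against 0.29 and 0.19 over all genes tested. The files and labels do not say what the runs stand for.

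**Figure D3:**
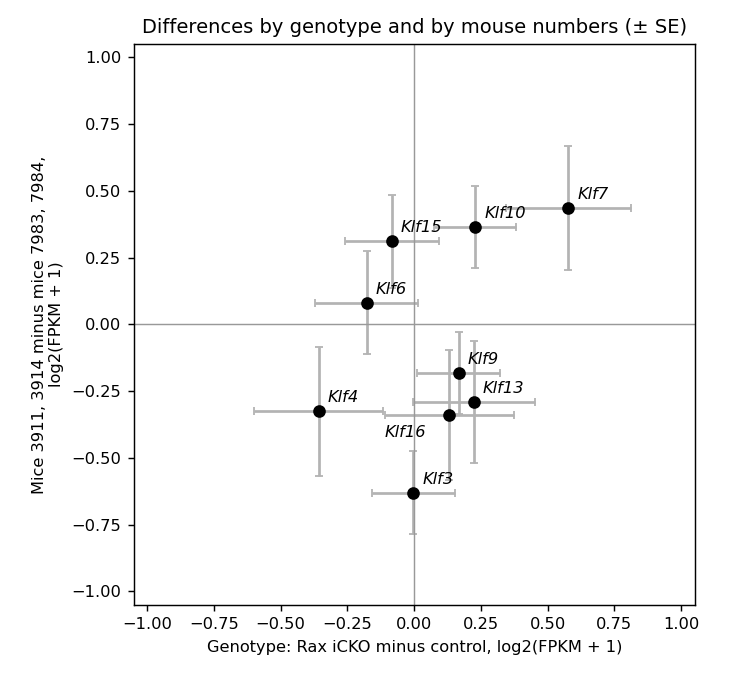
For each of the 9 members tested, the difference by genotype (horizontal) against the difference by run of mouse numbers (vertical), both in log2(FPKM + 1) with standard errors from limma with both terms. *Klf3* lies at 0 by genotype and lowest by run, at -0.63, and *Klf7* lies farthest to the right.

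The other relatives in the files were not called between genotypes. Of the 7 other *Klf* genes, 2 had a mean FPKM of at least 1 and 0 were called by limma, with 0 at an unadjusted p under 0.05. *Klf12*, which encodes a CtBP-binding repressor like *Klf3*, measured 6.30 FPKM (mouse 7984) and 4.18 FPKM (mouse 3911) in control against 6.87 FPKM (mouse 7983) and 6.47 FPKM (mouse 3914) in *Rax* iCKO. Its groups did not overlap, and the log2 fold change was 0.32 (standard error 0.28). *Klf11*, a relative of *Klf10*, measured 2.74 FPKM (mouse 7984) and 2.42 FPKM (mouse 3911) in control against 2.18 FPKM (mouse 7983) and 2.50 FPKM (mouse 3914) in *Rax* iCKO. *Klf1*, *Klf5*, *Klf8*, *Klf14* and *Klf17* had a mean of at most 0.337 FPKM. The Sp factors, whose zinc fingers resemble those of the *Klf* genes, were represented by 6 of 9 genes at a mean FPKM of at least 1, and 0 were called, with 0 at an unadjusted p under 0.05. *Sp3* was the most abundant at a mean of 14.4 FPKM, ahead of *Sp2* at 7.22, *Sp4* at 5.13 and *Sp1* at 2.85. *Sp6* had a mean of 1.18 FPKM. *Sp7* had non-overlapping groups, at 1.92 and 1.29 FPKM in control and 0.762 and 1.18 FPKM in *Rax* iCKO, which gave a log2 fold change of -0.40 (standard error 0.31).

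Genes that act upstream of the factors or with them were also not called. Of 13 tested genes for ERK5, MEF2, steroid and thyroid receptor and TGF-beta signalling, which induce several *Klf* genes, 0 had an adjusted p under 0.05 in limma, 0 had an unadjusted p under 0.05, and the median log2 fold change was 0.12. Both *Rax* iCKO libraries were above both controls for 6 of the 13 and below them for 0, where 15.4% of all genes tested were above and 14.1% below. *Mapk7*, which encodes ERK5, an inducer of *Klf2* and *Klf4*, measured 5.29 FPKM (mouse 7984) and 3.08 FPKM (mouse 3911) in control against 7.33 FPKM (mouse 7983) and 6.60 FPKM (mouse 3914) in *Rax* iCKO, which gave a log2 fold change of 0.65 (standard error 0.30). *Nr3c2*, the mineralocorticoid receptor gene, measured 3.07 FPKM (mouse 7984) and 3.63 FPKM (mouse 3911) in control against 4.28 FPKM (mouse 7983) and 7.23 FPKM (mouse 3914) in *Rax* iCKO, which gave a log2 fold change of 0.60 (standard error 0.31). Both were higher in both *Rax* iCKO mice than in either control. Of 12 cofactor genes, 0 were called by limma, 0 had an unadjusted p under 0.05, and the median log2 fold change was 0.15. The *Rax* iCKO libraries were above both controls for 5 of the 12 and below them for 0. *Crebbp* and *Ep300*, which encode histone acetyltransferases, had the largest log2 fold changes of the 12, 0.67 (standard error 0.52) and 0.52 (standard error 0.41), but are not among these 5, since their groups overlapped. *Crebbp* measured 8.39 FPKM (mouse 7984) and 2.28 FPKM (mouse 3911) in control against 9.59 FPKM (mouse 7983) and 6.41 FPKM (mouse 3914) in *Rax* iCKO.

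Other glucocorticoid-induced genes, a list that leaves out *Klf9* and *Klf15*, which glucocorticoids also induce, had 15 tested members and a median log2 fold change of -0.11. Of these, 0 were called by limma and 1, *Cebpd*, had an unadjusted p under 0.05, against 0.0243% and 2.86% of all genes tested. Both *Rax* iCKO libraries were above both controls for 1 of the 15 and below them for 4, against 15.4% and 14.1%. *Cebpd*, a transcription factor gene of acute-phase responses, measured 23.2 FPKM (mouse 7984) and 30.6 FPKM (mouse 3911) in control against 11.0 FPKM (mouse 7983) and 9.80 FPKM (mouse 3914) in *Rax* iCKO. *Tsc22d3* and *Fkbp5*, glucocorticoid targets like *Klf9*, had log2 fold changes of -0.16 and 0.37.

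Immediate early genes, whose RNA rises within minutes of stimulation or of tissue dissociation and which share this behaviour with *Klf2*, *Klf4*, *Klf6* and *Klf10*, had mostly negative estimates in *Rax* iCKO against control. Of the 19 tested, 0 had an adjusted p under 0.05 in limma, 7 had an unadjusted p under 0.05, all of them lower, where 2.86% of all genes tested had such a p in either direction. Of the 19 estimates 17 were below 0, and the median log2 fold change was -0.46. Both *Rax* iCKO libraries were below both controls for 11 of the 19, where 14.1% of all genes tested were. *Ier3*, which encodes a survival factor, measured 29.6 FPKM (mouse 7984) and 24.7 FPKM (mouse 3911) in control against 15.6 FPKM (mouse 7983) and 8.81 FPKM (mouse 3914) in *Rax* iCKO. *Zfp36*, which encodes an mRNA-destabilising protein, measured 67.6 FPKM (mouse 7984) and 55.8 FPKM (mouse 3911) in control against 37.5 FPKM (mouse 7983) and 24.01 FPKM (mouse 3914) in *Rax* iCKO. *Egr2*, *Gadd45b*, *Cyr61*, *Ier2* and *Junb* had log2 fold changes of -1.04, -0.78, -0.70, -0.68 and -0.67. *Klf4*, *Klf6* and *Klf10* had log2 fold changes of -0.36, -0.18 and 0.23, with standard errors of 0.30, 0.24 and 0.25. *Klf2*, fitted without the filter and resting on few reads, had -0.30 (standard error 0.14). The part of cell handling in these values was not tested.

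**Figure D4:**
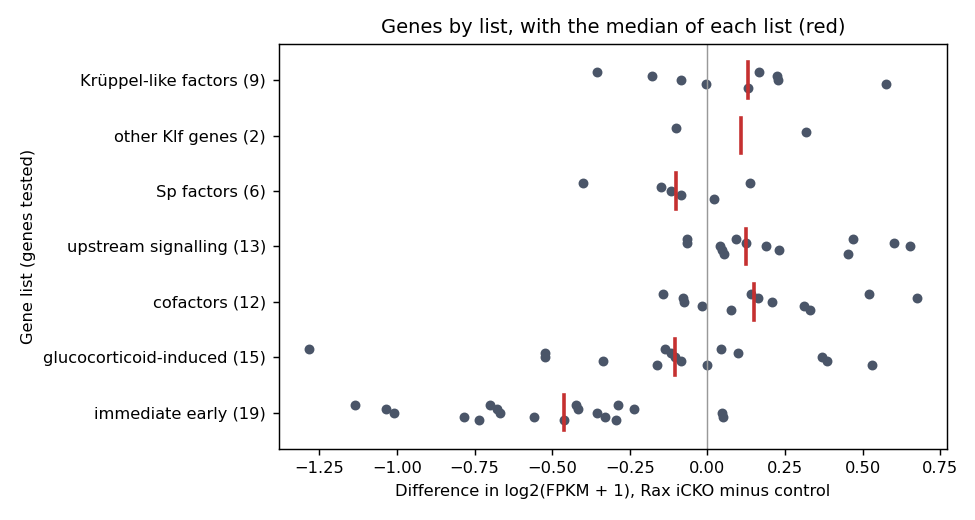
Difference in log2(FPKM + 1), *Rax* iCKO minus control, of each tested gene (points) by list, with the number tested in brackets and the median of the list as a red line. The 9 Krüppel-like factors spread around a median of 0.13, and the 19 immediate early genes have a median of -0.46.

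Markers of other cells were measured in the same libraries, since *Klf2* and *Klf4* are strong in endothelium and *Klf2* and *Klf6* in microglia. In such bulk samples fewer cells of a type and less RNA per cell cannot be told apart. Summed, 9 endothelial markers measured 502 FPKM (mouse 7984) and 258 FPKM (mouse 3911) in control against 416 FPKM (mouse 7983) and 271 FPKM (mouse 3914) in *Rax* iCKO, of which *Kdr* made up 464, 228, 385 and 241. Like *Klf3*, this sum was higher in mice 7983 and 7984 than in mice 3911 and 3914, but of the 9 markers 2 were lower in mice 3911 and 3914, *Kdr* and *Flt1* among them, and 2 were higher, *Egfl7* among them. The sum of 6 pericyte markers, at 27.0 and 24.5 against 11.1 and 13.2, and that of 7 amacrine markers, at 84.8 and 78.0 against 62.5 and 56.4, were also higher in mice 7984 and 7983 than in mice 3911 and 3914, with 4 markers of each list lower in the latter. These sums were mostly *Pdgfrb* and *Pax6*, and 1 of the 6 pericyte and 4 of the 7 amacrine markers averaged 1 FPKM or more. Of the 12 Müller glial markers 7, and of the 8 microglial markers 4, were also lower in mice 3911 and 3914 and 0 were higher, where 26.8% of all genes tested were lower. The 8 microglial markers summed to 44.6 and 46.0 FPKM in the controls, but to 79.5 in *Rax* iCKO mouse 7983 and 11.8 in mouse 3914, with no marker at 0 in all 4 libraries. The 8 rod markers summed to 1365 and 1342 FPKM in the controls, but to 912 and 792 in *Rax* iCKO, with 7 of 8 lower in both *Rax* iCKO mice than in either control, as 14.1% of all genes tested were. The 12 Müller glial markers summed to between 10978 and 14121 in control and between 9648 and 9840 in *Rax* iCKO, with 4 of 12 lower in this way, against the same 14.1%. The 4 astrocyte markers summed to 54.5 and 44.6 FPKM in the controls, but to 31.2 and 29.9 in *Rax* iCKO, with 2 of 4 lower in this way. *Aldh1l1* made up most of this sum, and *Gfap* overlapped between genotypes. Of 7 bipolar markers, 4 were higher in both *Rax* iCKO mice, as 15.4% of all genes tested were. The sum of the 7, led by *Pcp2*, was between 3735 and 5058 in mice 7984 and 7983 and between 7398 and 8876 in mice 3914 and 3911. The sums of 6 cone and 7 amacrine markers overlapped between genotypes, and so did those of 7 ganglion cell markers, with *Pou4f1* at 0 throughout, and 6 pigment epithelium markers, with *Mlana* at 0 throughout. By run, the cone and pigment epithelium sums were higher in mice 3911 and 3914. Of the cone markers 3 were higher and 0 lower, and of the pigment epithelium markers 1 was higher and 1 lower, where 29.1% of all genes tested were higher. The part of these cells in the values of the Krüppel-like factors was not tested.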

How the data were processed

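FPKM values were deposited by the authors, 1 value per gene symbol and mouse. Per the paper, TopHat, run with Bowtie2 and SAMtools, mapped single-end reads to mm10 and Cufflinks gave the FPKM, whereas the submitters' processing notes name TopHat2 2.1.1, Bowtie2 2.2.8, SAMtools 0.1.18 and Cuffdiff 2.2.1. The paper names TRIzol LS and the labels a spin-column kit for the RNA, and the labels a full-length cDNA kit. The strand setting is not given in the sources used here, so reads of overlapping antisense genes cannot be told apart. FPKM were used as deposited.

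Depth was estimated as the number of mapped reads at which FPKM of single-transcript genes (600 bases or longer) came closest to whole reads, with 200 bases taken off each length. Read numbers of members use the longest coding transcript and are therefore approximate, and counts were not tested.

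The test between genotypes was limma 3.58.1 (R 4.3.3; lmFit, then eBayes with trend) applied to log2(FPKM + 1) of the 12363 genes averaging 1 FPKM or more, adjusted by Benjamini-Hochberg. Checked on simulated data with changes larger than that of any member, it recovered nearly all changed genes, with false calls above the nominal rate. That check does not show that differences as small as those of the members would be found. In this fit to the real data the targeted gene *Rax* was not called. Exact permutation tests used scipy 1.17.1. In the lists, genes with an unadjusted p under 0.05 were named, or else the 2 with the largest differences. *Tsc22d3*, *Fkbp5* and the least abundant *Klf* genes were named after their values were seen. The members and lists were chosen with earlier results of these data known. Alternatives changed the pseudocount (0.1), the filter (none, or an average of 5 FPKM), the scaling (quantile, or medians made equal), the variance trend (off), the block (run of mouse numbers) or the mice (each left out in turn). The 2 mice of a group are separate animals.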

Additional observations from a re-analysis of the deposited data

How the results depend on the processing

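The count of Krüppel-like factors called by limma was 0 under the 11 alternatives, although at a mean FPKM of at least 5 only 5 of the 9 were tested, and with a mouse left out its group held 1 mouse, assumed to vary like the other group. The lowest adjusted p of a member in any of these fits was 0.258, for *Klf7* when the mouse-number run served as block. With all 4 mice, no member changed direction. Without 1 mouse at a time, *Klf3* ran from -0.37 to 0.36, *Klf13* from -0.056 to 0.50, *Klf15* from -0.26 to 0.093 and *Klf16* from -0.057 to 0.32 in log2 fold change, so their sign rested on single mice, while *Klf7* ran from 0.31 to 0.85, *Klf4* from -0.61 to -0.11, *Klf6* from -0.30 to -0.054, *Klf9* from 0.075 to 0.26 and *Klf10* from 0.015, without *Rax* iCKO mouse 3914, to 0.44. The number of all genes called, 3, was 0 in limma without the filter (624 at an unadjusted p under 0.05), 0 at a mean FPKM of at least 5 (279 unadjusted), 6 with equal medians and 71 with the run as a block, and between 15 and 20 without 1 mouse. With the run as a block 1 glucocorticoid-induced gene (*Cebpd*) and 2 immediate early genes (*Ier3* and *Zfp36*) were called by limma, and the targeted gene *Rax* had an adjusted p of 0.0223 against 1.0 without it. With 2 pairs and no label for the runs, the pairing is not established. As a share of summed reads, which are not scaled to length, in place of FPKM, *Klf3* made up 28.5% of the 10 genes (22.6% by FPKM) and *Klf10* 16.1% (22.5%). The shares that moved by over 1.5 times were those of *Klf15*, 6.67% (11.6%), *Klf13*, 7.25% (4.66%), *Klf7*, 6.43% (3.41%), *Klf16*, 1.61% (2.59%) and *Klf2*, 0.125% (0.298%), so that by reads *Klf15* came after *Klf6* and *Klf13*. With 2 mice a group, the intervals of all 9 members tested include a change of over 1.5 times in at least 1 direction, and those of *Klf3* and *Klf16* in both.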
